A study of Homo sapiens with 10 samples.

Results

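The regions described here are m6A peaks of genes listed under both hypoxia and normoxia that shared no base with the peak list of the other condition. Each condition of the study had 1 peak list, with 7669 peaks in 2637 genes for hypoxia and 2285 peaks in 1231 genes for normoxia. The 560 genes named in both lists are called shared genes below, and they held 1609 hypoxia and 1176 normoxia peaks. A peak of a shared gene was taken as a different site when its exon blocks shared no base, on the same chromosome and strand, with any peak of the other list. This left 911 hypoxia sites (56.6% of 1609) and 448 normoxia sites (38.1% of 1176), or 1359 of the 9954 peaks of both lists. Presence in one list and absence from the other chose these sites, so the sites were chosen by the peak calls of the 2 lists, and their number and their absence from the other list are a description with no test.

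The sources used here give the cells as the V16A line, from castration-resistant prostate cancer. Whether each library is of that line was not tested. The series holds 5 samples enriched with an antibody against m6A (MeRIP) and 5 inputs: hypoxia and normoxia with 2 replicates of each kind, and EU 40min with 1 of each kind. EU is read here as ethynyl uridine, which labels newly made RNA, and the labels give no oxygen condition for that sample. The sources used here give no oxygen level or duration. The labels do not say whether replicates were separate cultures, so a p-value reflects only how far these libraries differ, and that difference may be technical.

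The methyl mark m6A is placed on adenosines of RNA by a writer complex built around METTL3 and METTL14, mostly within the DRACH context, of which GGACT is a frequent form. In messenger RNA it is best known near stop codons and in long internal exons, and reader proteins of the YTH family link it to decay, translation and export. MeRIP reads the mark as a window of enriched fragments, not as a single base.

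Sequence could be read only for sites that reached a promoter window, the 250 bases before and 50 after a RefSeq gene start (GRCh38.p14, which shares its coordinates with hg38). This held for 23 hypoxia and 14 normoxia sites. The stretches of 30 bases below lie inside a site and hold GGACT on the sense strand, in capitals. They are shown because they are the only sites in these windows with that form of the context near a gene start.

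WAPL hypoxia site, chr10:86521786-86521815, minus strand: gcgcggGGACTgtgggaagcggagtgacgg

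SKA3 hypoxia site, chr13:21176573-21176602, minus strand: gagaGGACTgcgcctgcgcagagccgagga

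FANCL normoxia site, chr2:58241308-58241337, minus strand: ctgtgtttctccGGACTtcgagccatggcg

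ASB6 normoxia site, chr9:129642127-129642156, minus strand: ggggcgcggcttGGACTgaggagcggaccc

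GGACT was thus found on the sense strand in 2 of 23 hypoxia and 2 of 14 normoxia stretches, and on the other strand in 2 and 1. Across 35116 RefSeq promoters, the same bases of the window held it in 6.49% and 7.16% on average. Its shorter core GGAC, which every GGACT contains, stood in 6 and 5 of these stretches on the sense strand, against 22.6% and 25.1% of all promoters. WAPL encodes a factor that releases cohesin from chromatin, SKA3 a kinetochore protein, FANCL a ubiquitin ligase of the Fanconi anaemia pathway and ASB6 a SOCS box protein. The WAPL site was called in both hypoxia libraries, the SKA3 site in hypoxia replicate 2, the FANCL site in normoxia replicate 1 and the ASB6 site in none of the 5 libraries. A match of letters is a description of the window and does not locate a methylated base.

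Normoxia replicate 1 stood apart from the other libraries. It had 212 peaks, against 1563 in normoxia replicate 2, 2879 and 6621 in hypoxia replicates 1 and 2, and 5044 in the EU library. Of 18 marker genes of T and NK cells, hypoxia replicates 1 and 2 had a peak in 13 and 15, normoxia replicates 1 and 2 in 7 and 0, and the EU library in 14. Of 11 prostate and epithelial markers, the hypoxia libraries had a peak in 1 and 3, the normoxia libraries in 0 and 4 and the EU library in 7, and FOLH1, KRT8, KRT18 and CDH1 had none in any of the 5. Every library but normoxia replicate 2 thus had a peak in a larger share of the T and NK markers than of the prostate and epithelial markers. Markers of macrophages and B cells had 0 peaks in all 5. A peak list holds only what passed a threshold, so the lack of a peak does not make a gene silent, and in a bulk sample fewer cells of a type and less RNA per cell cannot be told apart. The part of these markers in the results below was not tested.

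Different sites were found in most shared genes. Of the 560, 362 (64.6%) had a hypoxia site, 269 (48.0%) a normoxia site and 196 (35.0%) both kinds. A further 166 had hypoxia sites alone, 73 normoxia sites alone, and in 125 every peak had a base in common with the other list. In 102 genes (18.2%) no peak of one list touched a peak of the other, and 26 of these had a single peak in each list. The rule chose these sites, so the percentages describe the lists and nothing is read from them. Sites were unevenly spread: 134 genes had 1 hypoxia site and 49 had at least 5, whereas 170 had 1 normoxia site and 7 had at least 5. Sites of 1 gene come from 1 transcript and are not independent of each other.

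The distance to the nearest peak of the other list was often short. Its median was 1199 bases for hypoxia sites and 645 for normoxia sites. The gap was under 150 bases for 141 hypoxia sites (15.5%) and 104 normoxia sites (23.2%), and 1000 bases or more for 488 (53.6%) and 198 (44.2%). Just inside the rule stood a hypoxia site of EPPK1, which encodes epiplakin, 10 bases from the normoxia list, and sites of RCC2, a regulator of chromosome condensation, 23 bases apart in both lists. A normoxia site of the histone gene H2AFX lay 19 bases from a hypoxia peak. Just outside, 70 hypoxia and 74 normoxia peaks shared exactly 1 base with the other list, among them peaks of PGP, ZC3H4, FAM83G and TOB2 in hypoxia and of VCPIP1, KNOP1 and CBX2 in normoxia.

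Each site was then looked up in the 5 libraries, with a call meaning that a library peak on the same strand shared at least 1 base, whatever gene name it carried. Of the 911 hypoxia sites, 20.4% were called in hypoxia replicate 1, 57.8% in hypoxia replicate 2, 0.549% in normoxia replicate 1 and 2.96% in normoxia replicate 2. Of the 448 normoxia sites, 6.03% and 12.3% were called in the hypoxia libraries, 1.79% in normoxia replicate 1 and 37.5% in normoxia replicate 2. Each kind of site was called mainly in the second replicate of its own condition. Normoxia sites were called in a hypoxia library more often than hypoxia sites in a normoxia library. The hypoxia libraries also had more peaks, 2879 and 6621 against 212 and 1563, and a longer list touches a site more easily. The sources used here do not say how the condition lists were made from the libraries, and these calls cannot be taken as independent of the rule.

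**Figure D1:**
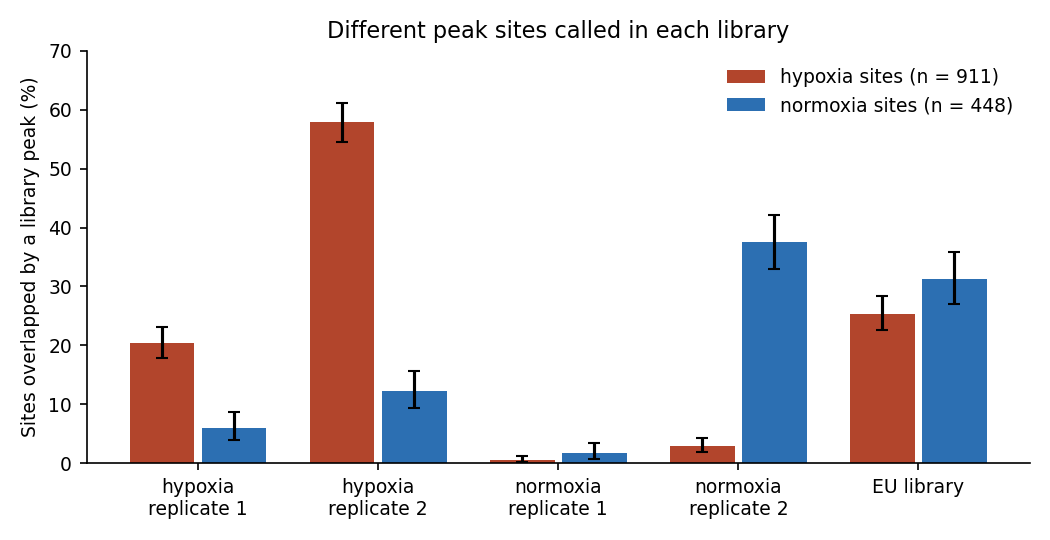
Share of hypoxia sites (n = 911) and normoxia sites (n = 448) that shared at least 1 base with a peak of each library, in percent, with exact binomial 95% intervals. The tallest bars are hypoxia sites in hypoxia replicate 2 (57.8%) and normoxia sites in normoxia replicate 2 (37.5%), and normoxia replicate 1 called 0.549% and 1.79%.

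Support in both replicates was rare. Of the hypoxia sites, 587 (64.4%) were called in at least 1 hypoxia library, 126 (13.8%) in both, and 566 in a hypoxia library and no normoxia library. Of the normoxia sites, 174 (38.8%) were called in at least 1 normoxia library, 2 in both, and 142 (31.7%) in a normoxia library and no hypoxia library. Another 44 normoxia sites (9.82%) were called in a hypoxia library alone. No peak of the 4 hypoxia and normoxia libraries touched 313 hypoxia sites (34.4%) or 230 normoxia sites (51.3%).

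The EU library did not enter the rule. Its peaks touched 231 hypoxia sites (25.4%, exact 95% interval 22.6% to 28.3%) and 140 normoxia sites (31.2%, 27.0% to 35.8%), and with 1 EU library there is no test over samples. The intervals, which cover counting error only, overlapped. Peaks of shared genes with a base in common were touched more often, 72.9% of those in the hypoxia list and 71.8% of those in the normoxia list. They were also wider, and a wider peak is touched more easily. When the hypoxia list was shortened to the 2285 peaks with the smallest deposited p, the order turned, with EU calls 5.77 percentage points higher among hypoxia than normoxia sites.

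Some genes with many hypoxia sites had no peak in either hypoxia library. NOTCH2, a receptor of the Notch pathway, had 12 hypoxia sites, the most of any gene, all within chr1:119913498-119948476. By gene name, it had 0 and 0 peaks in the hypoxia libraries, 0 and 2 in the normoxia libraries and 3 in the EU library. Its 1 normoxia site, chr1:119915243-119915442, was called in normoxia replicate 2. SPEN, a large transcriptional repressor that binds RNA, had 11 hypoxia and 4 normoxia sites, with 0 and 0 peaks in the hypoxia libraries, 0 and 5 in the normoxia libraries and 2 in the EU library. By shared bases, too, none of the hypoxia sites of these 2 genes was called in a hypoxia library.

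AHNAK, which encodes a very large scaffold protein, showed the opposite. It had the most normoxia sites, 9, at chr11:62518499-62534071, and 3 hypoxia sites in the same stretch. Its peaks numbered 17 and 19 in the hypoxia libraries, 0 and 0 in the normoxia libraries and 8 in the EU library, and 8 of its 9 normoxia sites were called in a hypoxia library. SEC16A, a scaffold of endoplasmic reticulum exit sites, had 6 normoxia sites and 6 and 0 peaks in the hypoxia libraries, 0 and 3 in the normoxia libraries. IQSEC1, an exchange factor for ARF6, also had 6 normoxia sites, of which 3 were called in normoxia replicate 2.

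Over all genes with a hypoxia site, 77 of 362 (21.3%) had no peak under that name in either hypoxia library, and 36 of these had one in a normoxia library. Of the 269 genes with a normoxia site, 108 (40.1%) had no peak in either normoxia library, and 70 of these had one in a hypoxia library. A peak in both libraries of their own condition stood behind 112 and 8 genes. CBX5, which encodes the heterochromatin protein HP1 alpha, had 9 hypoxia sites and 8 and 13 peaks in the hypoxia libraries, with none in the normoxia libraries. MOB1A, an activator of Hippo pathway kinases, had 8 hypoxia sites, with 3 and 7 peaks in the hypoxia libraries and none in the normoxia libraries.

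Different sites were also found between replicates of 1 condition. The same rule was applied to each pair of libraries, over the genes with a peak in both. Between the replicates of hypoxia, 26.9% of the peaks of replicate 1 and 49.1% of those of replicate 2 shared no base with the other. Between those of normoxia, the shares were 41.8% and 49.4%, over 67 and 81 peaks. Against normoxia replicates 1 and 2, the shares were 57.5% and 59.5% for hypoxia replicate 1 and 61.7% and 54.9% for hypoxia replicate 2. In the reverse direction they were 16.4% and 13.6% for normoxia replicate 1, and 50.5% and 32.7% for normoxia replicate 2. The shares within a condition thus lay inside the range of those between conditions, but this differed by library. Each hypoxia library had a lower share against its replicate than against either normoxia library. Normoxia replicate 1 had a higher share against its replicate than against either hypoxia library, and normoxia replicate 2 lay between. The libraries ran from 212 to 6621 peaks, and a longer list is met more easily. The part of list length was not tested. Pairs that share a library are not independent and were not tested.

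**Figure D2:**
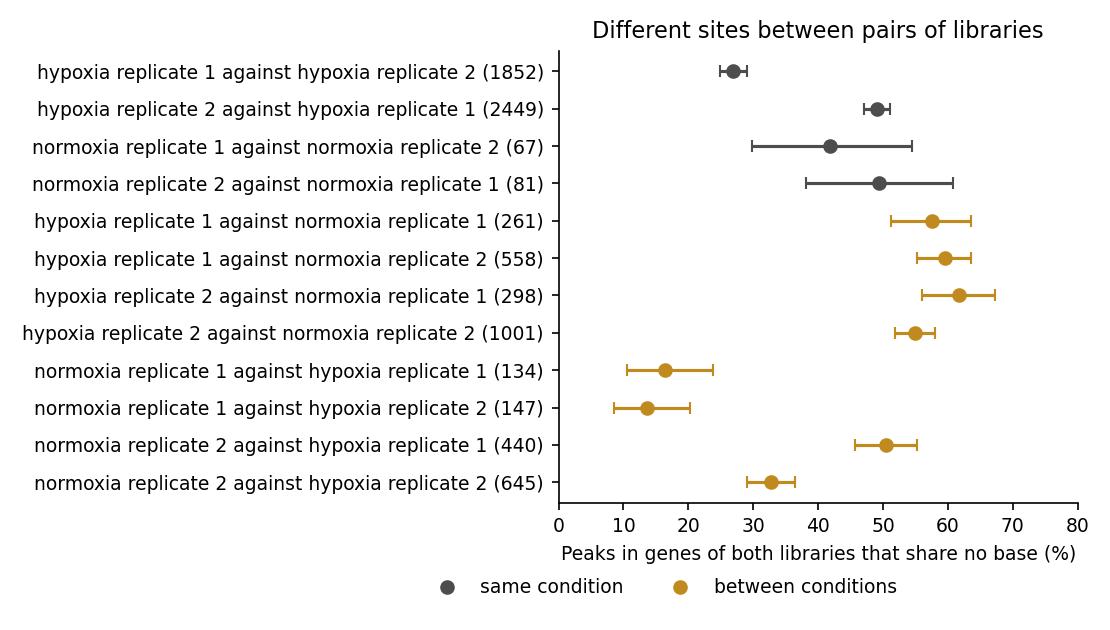
Share of the peaks of one library, in genes with a peak in both libraries of a pair, that shared no base with the other library, in percent, with exact binomial 95% intervals. The number of peaks is in parentheses. Points within a condition lie between 26.9% and 49.4%, inside the range of 13.6% to 61.7% between conditions. The lowest point is normoxia replicate 1, the shortest list, against hypoxia replicate 2.

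The median position of hypoxia and normoxia sites along their genes differed little in the full lists, and this changed with the peaks kept. Position was the middle of a site as a percentage of the RefSeq gene span, introns included, from the 5′ end, and was available for 890 hypoxia and 435 normoxia sites. The median was 73.7% for hypoxia sites (95% interval 70.4% to 76.6%) and 72.3% for normoxia sites (66.4% to 77.8%). The last 10% of the span held 278 hypoxia sites (31.2%) and 130 normoxia sites (29.9%), and the first 10% held 85 and 52. The difference of the medians, 1.39 percentage points, was -2.19 with the 50% of each list that had the smallest p, -5.87 for sites called in a library of their own condition and in none of the other, and 11.1 when only the best 2285 hypoxia peaks by deposited p were kept. Peaks with a base in common had medians of 74.6% and 72.8%. In the libraries, peaks of shared genes that missed the other condition's list had median positions of 71.2% and 72.7% in hypoxia and 89.3% and 77.1% in normoxia, and the difference of -11.3 percentage points had an exact two-sided permutation p of 0.333, the smallest that 2 libraries against 2 allow. The value of 89.3% rests on 17 peaks of normoxia replicate 1, and over all peaks of these libraries in shared genes the difference turned to 3.07.

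**Figure D3:**
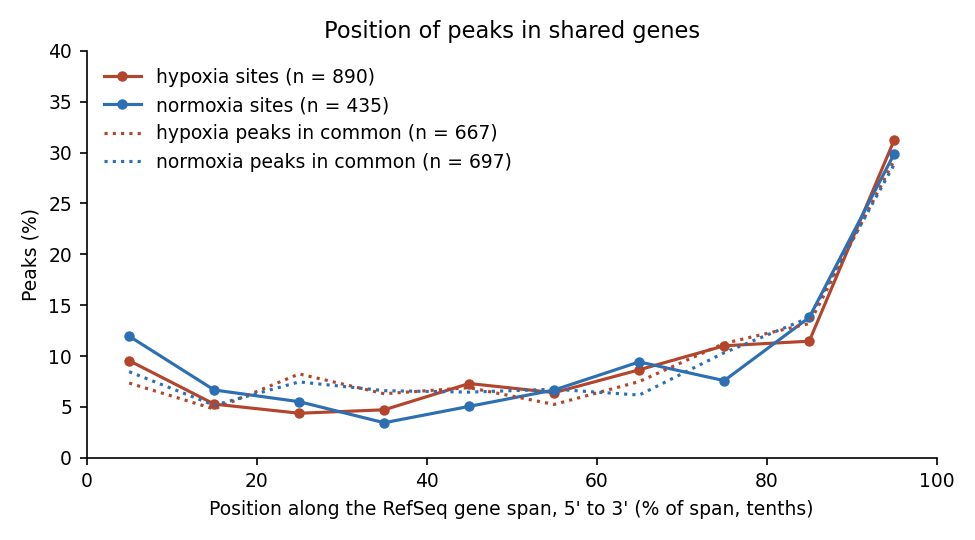
Share of peaks in each 10% step of the RefSeq gene span, 5′ to 3′, in percent, for hypoxia sites, normoxia sites and the peaks of both lists with a base in common (dotted). Every curve is highest in the last step, where hypoxia sites reach 31.2% and normoxia sites 29.9%.

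Within a gene the direction of the change was mixed. In the 196 genes with both kinds, the normoxia site with the smallest deposited p lay downstream of its hypoxia counterpart in 103 (52.6%, exact 95% interval 45.3% to 59.7%) and upstream in 93. Among the 102 genes with no base in common the counts were 64 and 38. The median distance between the middles of these best sites was 3205 bases in the 196 genes and 2159.5 bases in the 102. In the 196 genes, 125 pairs were over 1 kb apart. In 49 of the 196 genes the best sites stood over 50% of the span apart, with the normoxia site downstream in 21 and upstream in 28.

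In 13 of the 102 genes with no base in common (12.7%), the best hypoxia site was called in a hypoxia library and no normoxia library, and the best normoxia site in a normoxia library and no hypoxia library. Among them were HOMEZ, REXO4, RP11-110I1.12, FAM98A, ST20-MTHFS, AC006116.27, PLEC, SLC45A3, MRM3, MFAP3, DIDO1 and RTCB. In all 13 the normoxia call came from normoxia replicate 2, and the hypoxia site was called in both hypoxia libraries in 3, among them PLEC and MRM3. None of the 13 therefore had its normoxia site in both normoxia replicates.

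**Figure D4:**
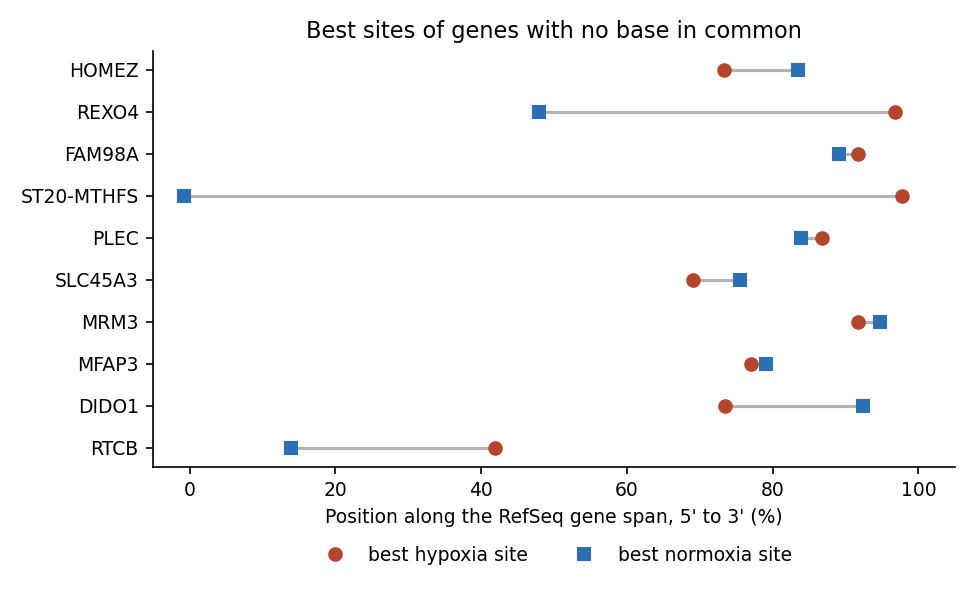
Position of the best hypoxia site (circle) and best normoxia site (square) along the RefSeq gene span, in percent from the 5′ end, for the 10 such genes with a RefSeq span that rank highest by deposited p. The sites lie furthest apart in ST20-MTHFS and close together in MFAP3, at 77.0% and 79.1%.

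MRM3, a methyltransferase of mitochondrial ribosomal RNA, had 1 peak in each list. Its hypoxia site, chr17:791624-791723, was called in both hypoxia libraries and the EU library, and its normoxia site, chr17:791919-792018, in normoxia replicate 2 and the EU library. Each site was 100 bases wide, and 195 bases lay between them. PLEC encodes plectin, a linker of the cytoskeleton, and had 5 hypoxia and 3 normoxia sites. Its best pair was chr8:143923100-143923550 in hypoxia, called in both hypoxia libraries, and chr8:143924999-143925199 in normoxia, called in normoxia replicate 2. The other hypoxia sites of PLEC lay between chr8:143917546 and chr8:143921493, and 1 of them was called in normoxia replicate 2 and no hypoxia library.

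REXO4, an RNA exonuclease, had 3 sites in each list. The hypoxia sites of REXO4 lay at 2.25%, 94.7% and 96.7% of its span, and the normoxia sites at 27.5%, 47.9% and 77.5%. The hypoxia sites were thus at the ends of the gene and the normoxia sites in its interior. HOMEZ, which encodes a homeobox protein, had 4 hypoxia sites between 70.4% and 75.6% of its span and normoxia sites at 0.430%, 66.55% and 83.5%.

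DIDO1, which encodes a PHD finger protein, had 1 hypoxia site at 73.4% of its span and 4 normoxia sites between 92.4% and 97.0%. Of these 4 normoxia sites, 3 were also called in hypoxia replicate 2, among them the widest, chr20:62879236-62879885, which was called in every library but hypoxia replicate 1. SLC45A3, a transporter known from prostate epithelium, had its normoxia site at chr1:205663296-205663494 and a hypoxia site 147 bases away that was called in hypoxia replicate 2 and normoxia replicate 2. RTCB, the catalytic subunit of the tRNA ligase complex, had its hypoxia site at 41.9% and its normoxia site at 13.9% of the span, each with 2 blocks.

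Among the 102 genes with no base in common, the best normoxia site lay furthest downstream of the best hypoxia site in USP12, CTR9 and PPAN-P2RY11. USP12, a deubiquitinase, had its hypoxia site at the gene start and its normoxia site at 97.0% of the span. CTR9, a subunit of the PAF1 elongation complex, had them at 5.09% and 97.1%, and the read-through gene PPAN-P2RY11 at 2.99% and 91.2%. The normoxia site lay furthest upstream among the 102 in the read-through gene ST20-MTHFS, in GBA2, a glucosylceramidase, and in UPF1, the helicase of nonsense-mediated decay. In GBA2 the hypoxia site stood at 95.6% and the normoxia site at 4.00%, and in UPF1 at 92.1% and 1.11%. Of these 6 genes, ST20-MTHFS alone had both best sites called in a library of their own condition. USP12 also had a hypoxia site 98 bases from its normoxia site. Its long distance thus rests on which of its hypoxia sites has the smaller deposited p.

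Hypoxia sites were wider than normoxia sites in the condition lists. The median width, summed over blocks, was 150 bases against 101, and the mean was 183 against 144. With the 50% of each list that had the smallest p, the difference of the medians fell from 49 to 2.5 bases, and for sites called in a library of their own condition and in none of the other to 6. There were 93 hypoxia sites (10.2%) over 300 bases and 14 normoxia sites (3.12%). Peaks with a base in common had medians of 249 and 198 bases, and a wider peak meets the other list more easily. In the libraries the median widths of the sites were 101 and 150 bases in hypoxia and 101 and 101 in normoxia, a difference of 24.5 with an exact two-sided permutation p of 1. Without hypoxia replicate 2 the difference was 0, and with the better 50% of each library by p it turned to -21.5.

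The 3 widest hypoxia sites lay in ADAM19, IL2RB and CISH. ADAM19, a membrane metalloprotease, had one of 1045 bases at chr5:157477899-157478943, called in both hypoxia libraries and the EU library. IL2RB, the beta chain of the interleukin-2 receptor and one of the T and NK markers, had one of 1001 bases, called in the same 3 libraries. CISH, a SOCS family inhibitor of cytokine signalling, had one of 993 bases at chr3:50607433-50608655, called in those 3 libraries and in normoxia replicate 1. The widest normoxia sites were the 650 bases in DIDO1, 499 in MID1IP1, a regulator of fatty acid synthesis, and 447 in TRMT10C, a subunit of mitochondrial RNase P. All 3 were called in normoxia replicate 2 and the EU library, and those of DIDO1 and MID1IP1 also in hypoxia replicate 2.

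Hypoxia sites joined exon blocks more often. The gap between 2 blocks is read here as an intron of the authors' annotation, which does not hold for every site. A normoxia site of TICAM1, chr19:4817765-4817917, had 3 blocks that summed to 151 bases, so its gaps are too short for introns. It also lay over another normoxia site of TICAM1, chr19:4817765-4817913, of 1 block. There were 2 or more blocks in 287 hypoxia sites (31.5%, exact 95% interval 28.5% to 34.6%) and 64 normoxia sites (14.3%, 11.2% to 17.9%). The whole lists had 35.1% and 14.7%. Peaks of shared genes with a base in common differed less. Their shares were 19.8% (16.9% to 22.9%) in the hypoxia list and 16.1% (13.5% to 18.9%) in the normoxia list, with overlapping intervals. Of the hypoxia sites, 207 had 2 blocks, 60 had 3 and 20 had 4 or more, against 54, 9 and 1 of the normoxia sites. Within the 196 genes that had both kinds, the shares were 31.5% of 479 and 15.4% of 332. Over all hypoxia and all normoxia sites with 2 or more blocks, the gaps between blocks had a median of 1324.5 and 1257 bases. Of the sites that an EU peak touched, 19.0% of hypoxia and 7.14% of normoxia sites had 2 or more blocks. These are a part of the same sites, with the blocks of the condition lists, and so are not a separate measure.

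The libraries gave 32.8% and 32.9% in hypoxia, over 381 and 754 peaks, and 17.6% (3 of 17) and 11.1% (23 of 207) in normoxia. The difference of 18.5 percentage points had an exact two-sided permutation p of 0.333, the smallest possible. The interval for normoxia replicate 1, 3.80% to 43.4%, contains the hypoxia values. Over all peaks of shared genes, normoxia replicate 1 had 30.4% (38 of 125), beside 29.3% and 27.2% in hypoxia and 10.4% in normoxia replicate 2, and the exact permutation p was 1. On that wider set the low share was thus found in normoxia replicate 2 and not in both normoxia libraries. Over whole library lists the shares were 35.9% and 36.7% in hypoxia, 29.7% and 9.92% in normoxia and 19.8% in the EU library, and normoxia replicate 2, with the lowest, was also the library with 0 of 18 T and NK markers. A link between these values was not tested.

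**Figure D5:**
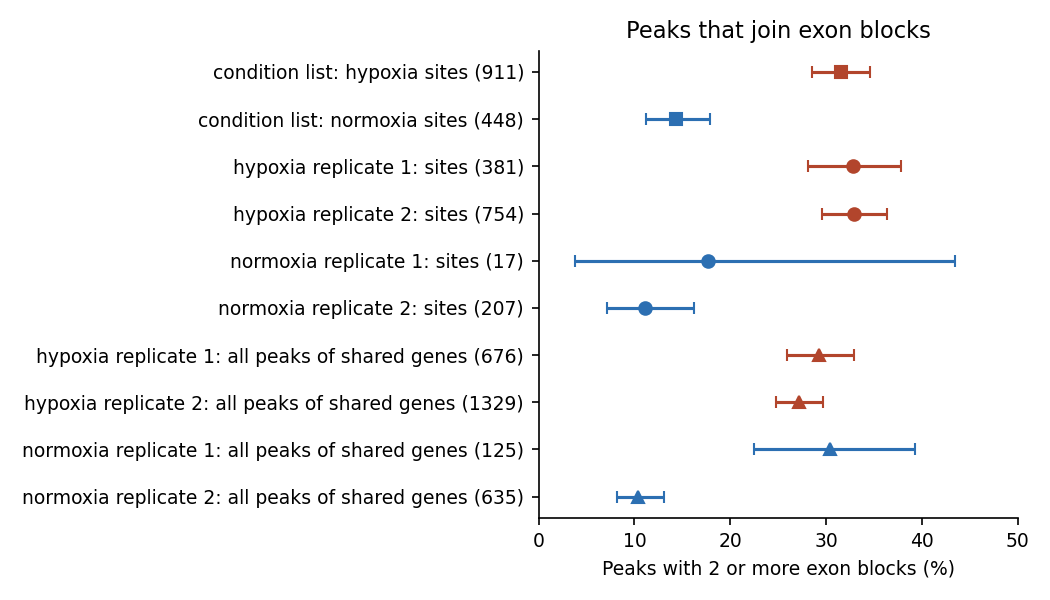
Share of peaks with 2 or more exon blocks, in percent, with exact binomial 95% intervals, for the sites of the condition lists (squares), the corresponding peaks of each library (circles) and all peaks of each library in shared genes (triangles). The number of peaks is in parentheses. Hypoxia points lie between 27.2% and 32.9%, normoxia replicate 2 lies at 11.1% and 10.4%, and normoxia replicate 1 at 17.6% and 30.4%.

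The hypoxia site with the most blocks was that of IL2RB, with 7 over chr22:37128687-37142591. ARRB1, which encodes beta-arrestin 1, had a site of 6 blocks at chr11:75283398-75306572, and RASA3, a Ras GTPase-activating protein, had one of 6 at chr13:114021493-114035695. Both were called in hypoxia replicate 2 alone. The normoxia site with the most blocks, 4, lay in MYCBP2, a ubiquitin ligase, at chr13:77061754-77066033, followed by sites of 3 blocks, among them one in IQSEC1 and one in ZNF232. These 3 normoxia sites were called in no normoxia library. Of all 9 normoxia sites of 3 blocks, those of POP7, TICAM1 and WDR6 were called in normoxia replicate 2, and that of POP7 in hypoxia replicate 2 as well; these genes were chosen after their values were seen.

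Gene groups are read against 64.6% and 48.0%, the shares of all shared genes with a hypoxia and a normoxia site. Of 9 genes of cell cycle and replication, 8 had a hypoxia site, 6 a normoxia site and 5 had no base in common, beside 18.2% of all shared genes: AURKB, CDC34, CENPF, MCM3AP and TOP2A. The normoxia sites of CDC34 and MCM3AP were called in none of the 5 libraries, and that of CENPF in hypoxia replicate 2 alone. TOP2A, the replication-linked topoisomerase, had 5 hypoxia sites of 2 to 4 blocks, 4 of them called in both hypoxia libraries, and 2 normoxia sites of 1 and 2 blocks. Of these normoxia sites, 1 was called in normoxia replicate 2. AURKB, the mitotic kinase, had hypoxia sites at chr17:8207289-8207751 and chr17:8207850-8207950, called in hypoxia replicate 2, and a normoxia site 148 bases from the first, called in no library. MKI67, the proliferation antigen, had 6 hypoxia sites, all called in hypoxia replicate 2, and 2 normoxia sites, of which 1 was called in normoxia replicate 2 and 1 in both hypoxia libraries.

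All 4 m6A factors among the shared genes had hypoxia sites and 2 had normoxia sites. RBM15 and RBM15B are adaptors of the writer complex, and YTHDC1 and YTHDF1 are readers. YTHDF1 had 4 hypoxia and 2 normoxia sites. Its normoxia sites, chr20:63202459-63202754 and chr20:63202951-63203099, were both called in normoxia replicate 2 and the EU library, and the hypoxia site at chr20:63203542-63203739 in both hypoxia libraries and the EU library. RBM15B had 4 hypoxia and 3 normoxia sites, which alternated along chr3:51392866-51395462. Of its 4 hypoxia sites, 2 were also called in normoxia replicate 2, while its 3 normoxia sites were called there and in no hypoxia library.

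Among 10 genes of chromatin and cohesin, 7 had a hypoxia and 5 a normoxia site. WAPL had 8 hypoxia sites, which included 4 of the 5 smallest deposited p of all hypoxia sites (8.5e-08 to 1.3e-07), and 1 normoxia site that was called in hypoxia replicate 1 alone. WAPL had 5 and 10 peaks in the hypoxia libraries and 0 in both normoxia libraries. CBX2, a Polycomb protein, had 2 normoxia sites, both called in normoxia replicate 2, and no hypoxia site. All 5 splicing factor genes had a hypoxia and 2 a normoxia site. SON, a scaffold of nuclear speckles, had 3 hypoxia sites called in hypoxia replicate 2 and 2 normoxia sites. Both RNA helicase genes, DDX6 and DDX23, had hypoxia sites, 5 and 7, and no normoxia site.

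ZNF genes, which encode zinc finger proteins, ran the other way in number, with a hypoxia site in 5 of 10 and a normoxia site in 9. The normoxia sites of ZNF121, ZNF232, ZNF652 and ZNF703 were called in no normoxia library, and those of ZNF703 in none of the 5 libraries. ZNF513 had the normoxia site with the smallest deposited p of all (1.5e-07), chr2:27377526-27377871, which was called in normoxia replicate 2 and the EU library. Its nearest hypoxia peak lay 246 bases away and was called in the EU library alone. Of 9 immediate early genes, 6 had a hypoxia site and 1, JUNB, a normoxia site, 48 bases from a hypoxia site. DUSP4, a MAP kinase phosphatase, had 6 hypoxia sites, 5 of them called in hypoxia replicate 2, and MCL1, an inhibitor of apoptosis, had 3, all called there. ZFP36L2, an RNA decay factor, had 3 that were called in neither hypoxia library. These groups are small, and their counts were not tested.

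Genes of the actin cytoskeleton had a hypoxia site in 6 of 9 and a normoxia site in 0 of 9. Their 37 normoxia peaks all had a base in common with the hypoxia list, beside 38.1% of all normoxia peaks of shared genes that had none. FLNA, which encodes the actin crosslinker filamin A, had 5 hypoxia sites and 17, 0, 9, 1 and 11 peaks in hypoxia replicates 1 and 2, normoxia replicates 1 and 2 and the EU library. TLN1, which encodes talin, had 7 hypoxia sites and 12, 5, 2, 1 and 3 peaks in the same order. ARHGDIB, which encodes a GDP-dissociation inhibitor known from blood cells, had 3, 4, 3, 2 and 2 peaks. It had 2 hypoxia sites, of which chr12:14956296-14961214 was called in both hypoxia libraries, and no normoxia site.

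Antigen presentation and T and NK marker genes gave like counts. Of 5 genes each, 2 had a hypoxia site and 0 a normoxia site. HLA-B had 1, of 544 bases, and CD74, the invariant chain, had 2. IL2RB had 4, all called in both hypoxia libraries, and GNLY, the cytolytic granule protein, had 1. IL2RB had 10 and 6 peaks in the hypoxia libraries, 2 and 0 in the normoxia libraries and 8 in the EU library. Among prostate markers, HOXB13, a prostate homeobox gene, had 2 normoxia sites, both called in normoxia replicate 2. Histone genes had 0 hypoxia sites and 1 normoxia site in 7 genes.

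The remaining groups were mixed. Of 14 genes of the ubiquitin system, 6 had a hypoxia and 6 a normoxia site, and of 11 solute carriers 6 and 5. Of 32 long non-coding RNAs, 12 had a hypoxia and 8 a normoxia site. Of 6 genes of small GTPases and their regulators, 4 and 2 did. Of 3 translation factors, 2 had a hypoxia site, in EIF3A and EIF4G1, and 1 a normoxia site. Both chaperone genes lacked a hypoxia site, and HSPA2, a heat shock protein, had 3 normoxia sites, which were called in none of the 5 libraries. Among the 2 HIF response genes, DDIT4, an inhibitor of mTORC1 that responds to hypoxia, had 1 normoxia site at 4.45% of its span and PFKFB3, a glycolytic regulator, had none. The 1 ribosomal protein gene, RPL17, had 2 hypoxia sites, and the 1 mitochondrial gene, ATP5J2-PTCD1, had both kinds.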

How the data were processed

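Peaks of m6A were called by the authors in 5 pulled-down libraries and for each of the 2 conditions. The submitters' processing notes name STAR and hg38. The caller, the threshold, the gene annotation, any use of inputs and strand and the building of the condition lists are not given in the sources used here. Files have 12 BED columns without a header. Column 5 was taken as the authors' deposited p-value of a peak, because its values fit one; no header names it. It was used only to rank peaks within a list. Reads and inputs were not used here, so depth is unknown and its effect on calls cannot be measured.

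Peaks were compared by exon block on the same chromosome and strand, with a minimum overlap of 1 base, using Python 3.11.15, numpy 2.4.6 and pandas 2.3.3. Overlap code was tested on simulated peaks. Starts were counted from 1. Genes were matched by name and position, within 10 kb, to RefSeq spans of GRCh38.p14, which matched 531 of 560 (94.8%). Intervals are exact binomial 95% intervals, computed with scipy 1.17.1, and cover counting error only. The exact permutation tests enumerated the assignments of libraries to conditions. The rule for named genes took up to 15 with no base in common and library calls in their own condition alone. It also took those with most sites, those with best sites furthest apart, the widest sites and those with most blocks. Up to 3 of each list by smallest p and genes fixed for their topic completed it. Other members of these lists named here (MKI67, TOP2A, AURKB, SON, DUSP4, MCL1, ZFP36L2, FLNA and TLN1 among them) and the genes of the printed sequences were chosen after their values were seen. Members, lists and rules were chosen with earlier results of these data known. Genes with near-identical copies, such as histones and HLA genes, and overlapping genes are uncertain. Some genes that the rule names are not reported here.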

Additional observations from a re-analysis of the deposited data

How the results depend on the processing

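Of 75 alternatives over 12 results, 7 turned the direction and 1 left a difference of 0; others kept the direction at another size, such as a library block share difference of 7.83 over all peaks of shared genes. With lists reduced to their better 50% by p there remained 193 hypoxia and 100 normoxia sites in 70 and 58 genes, with 23 genes without a common base; median position, hypoxia minus normoxia, was -2.19 percentage points, width 2.5 bases and the EU share -7.24, and in the libraries position was 5.05 and width -21.5. Shortening the hypoxia list to the length of the normoxia list left 217 and 94 sites in 85 and 65 genes, 31 without a common base, a position difference of 11.1 and an EU difference of 5.77. With gaps under 150 bases counted as shared, the EU difference was -4.81. Sites called in their own condition and in no library of the other, an alternative chosen after seeing the data, numbered 566 and 142, with normoxia sites in 106 genes, and gave differences of -5.87 in position, 6 bases in width, 23.0 in the share with 2 or more blocks and -15.8 in the EU share. Measured in kb to the gene end the position difference was -0.347, and over all library peaks of shared genes 3.07. Leaving out 1 library gave -17.4 to -5.18 in position, 0 to 49 bases in width (0 without hypoxia replicate 2) and 15.2 to 21.7 in the block share, which kept its direction in every alternative run. The cause of these shifts was not tested. Replicate differences had a correlation of -0.0978 over 3226 genes. Because normoxia replicate 1 had only 212 peaks, this value cannot decide whether libraries with the same replicate number were paired. In a test with a replicate block, the library differences in position (-11.3), width (24.5) and block share (18.5) had exact p of 0.5, 1 and 0.5. With 2 libraries a condition no result could pass 0.05, and unknown depth limits what the absence of a peak can show.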

Other observations

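Several genes fixed for their topic were outside the shared genes. The hypoxia condition list had 2 peaks in VEGFA, the angiogenic factor, and 3 in HIF1A, the oxygen-regulated transcription factor, and the normoxia list had none in either. In the libraries VEGFA had 2 and 2 peaks in hypoxia, 0 and 2 in normoxia and 4 in the EU library, and HIF1A had 0 and 4 in hypoxia and none in the others. CORO1A, an actin regulator of blood cells, was in neither condition list, with 5 and 7 peaks in the hypoxia libraries and 7 in the EU library. CD3E and LCK, of the T cell receptor pathway, had 6 and 7 peaks in the hypoxia list and 0 in the normoxia list.

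The 1 microRNA gene among the shared genes, MIR142, known from blood cells, had a hypoxia site at chr17:58332410-58332508, which lay 1.14 kb upstream of the hairpin and was called in none of the 5 libraries.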
